A study of Rattus norvegicus with 9 samples.

Results

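The expression of 10 transcription factor genes of the macrophage lineage, Spi1, Fli1, Elf4, Etv5, Irf8, Irf5, Runx3, Klf4, Tfec and Fos, was followed over 9 arrays. They were taken as the probe sets (groups of array probes summarized to 1 value) whose only gene symbol was one of these names, and each of the 10 genes had 1 probe set, of 14557 named genes and 36685 probe sets in all. The arrays covered livers of Sprague Dawley rat pups given daily subcutaneous injections of CSF1-Fc (n = 4) or PBS (n = 2) for 5 days from birth and killed on day 6, and bone marrow-derived macrophages (BMDM, n = 3) from rats of the Dark Agouti strain, cultured in CSF1 for 7 days. CSF1-Fc is pig CSF1, the macrophage growth factor, fused to an immunoglobulin Fc region. All of these pups were born to PBS-treated dams and raised by foster dams. BMDM therefore differed from the livers in strain and in culture as well as in cell type, and these cannot be told apart. The labels number the samples of a group without saying how they were kept separate, so the p-values measure only the spread between these samples.

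CSF1 acts through its receptor, Csf1r, a tyrosine kinase that carries the signal through ERK kinases to immediate early genes such as Fos. Spi1 encodes PU.1, the ETS factor without which macrophages do not form, and PU.1 binds many macrophage genes at purine-rich sites, often beside IRF, RUNX and AP-1 factors. In liver the main macrophages are the Kupffer cells of the sinusoids, whereas Fli1 and Klf4 are also active in endothelium, so a whole-liver level of these genes is a sum over cell types.

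Values are log2 expression after robust multi-array averaging (RMA), so that a difference of 1 is a 2-fold difference. Array medians lay between 3.75 and 3.87. Differences were tested in limma. P-values were adjusted by the Benjamini-Hochberg method across the whole array, and a gene is said to rise or fall where its adjusted p was under 0.05. Probe sets differ in brightness, so levels are compared between groups and not between genes. Markers matched the labels. The mean of 8 hepatocyte genes was 11.76 to 12.07 on the CSF1-Fc arrays, 11.85 to 12.09 on the PBS arrays and 3.80 to 4.13 on the BMDM arrays. The mean of 13 pan-macrophage markers was 10.02 to 10.13 in CSF1-Fc liver, 8.26 to 8.55 in PBS liver and 10.60 to 10.62 in BMDM. PBS liver 2 stood apart, correlating with the other livers at 0.951 to 0.962, against 0.971 to 0.985 for all other pairs of livers.

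All 10 genes were higher in CSF1-Fc-treated liver than in PBS-treated liver on every array, and 6 of the 10 passed the test, namely Etv5, Tfec, Irf8, Fli1, Irf5 and Spi1. Of all probe sets, 10.3% lay higher on all 4 CSF1-Fc arrays than on both PBS arrays, 1.22% passed as higher and 0.254% as lower. The log2 differences of the 10 genes ran from 1.06 to 1.93, and the median over all probe sets was -0.03. The study named these genes for their rise on the same samples, so neither their direction nor the size of their rise is independent evidence. In whole liver, more macrophages and more RNA per macrophage cannot be told apart. The plot of the genes by array shows the separation of the liver groups and the differing place of BMDM.

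**Figure D1:**
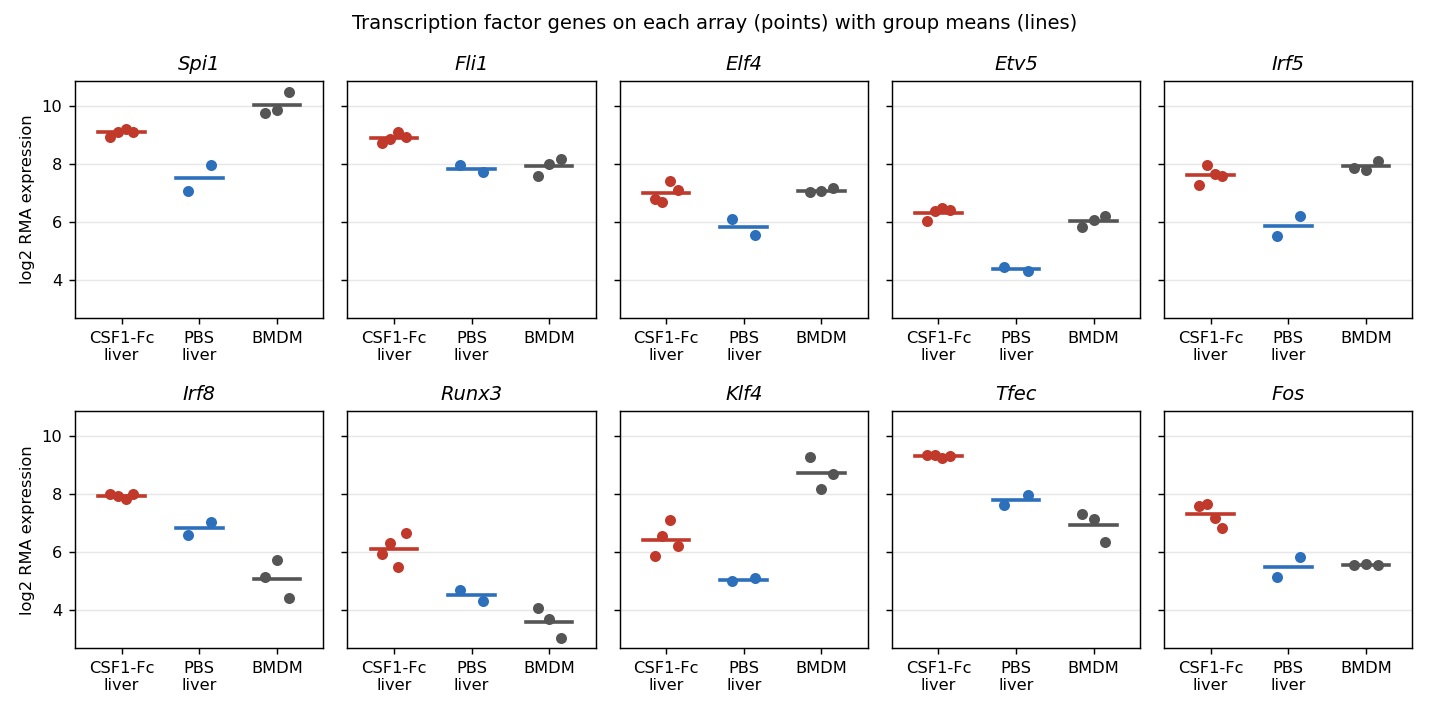
Log2 RMA expression of the 10 genes on each array (points) in CSF1-Fc liver (n = 4), PBS liver (n = 2) and BMDM (n = 3), with group means as lines. All CSF1-Fc points lie above the PBS points for each gene, while BMDM lies above, among or below the livers depending on the gene.

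Spi1, the gene of PU.1, was at 8.94, 9.10, 9.21 and 9.10 in CSF1-Fc liver, at 7.05 and 7.95 in PBS liver, and at 9.74, 9.85 and 10.48 in BMDM. The 3 groups did not overlap, and BMDM was highest. PU.1 is also made by neutrophils, and 12 neutrophil markers averaged 5.18 to 6.02 in CSF1-Fc liver, 6.67 to 6.95 in PBS liver and 3.91 to 4.39 in BMDM, whose part in the level of Spi1 was not tested. The gap between the PBS livers, with PBS liver 2 the higher, was the widest of the 10 genes. Spi1 rose 3.00-fold with CSF1-Fc (log2 difference 1.58, SE 0.26, adjusted p = 0.0487 from limma). It was 1.92-fold lower in CSF1-Fc liver than in BMDM (log2 difference -0.94, adjusted p = 0.00782).

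Fli1, an ETS factor of blood and endothelial cells, was at 8.71, 8.87, 9.08 and 8.91 in CSF1-Fc liver, at 7.96 and 7.72 in PBS liver, and at 7.59, 7.98 and 8.16 in BMDM. The PBS livers lay within the range of BMDM, and the CSF1-Fc livers lay above both. Fli1 rose 2.08-fold with CSF1-Fc (log2 difference 1.06, SE 0.15, adjusted p = 0.0369; 0.0948 without PBS liver 2). The mean of 11 endothelial markers was 7.25 to 7.52 in CSF1-Fc liver, 7.37 to 7.62 in PBS liver and 4.36 to 4.50 in BMDM, and their part in the level of Fli1 was not tested.

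Etv5, an ETS factor of the PEA3 group that acts downstream of receptor tyrosine kinases, was at 6.04, 6.38, 6.48 and 6.41 in CSF1-Fc liver, at 4.47 and 4.32 in PBS liver, and at 5.82, 6.08 and 6.21 in BMDM. The PBS livers were low and close together, whereas the CSF1-Fc livers overlapped BMDM. Etv5 rose 3.82-fold with CSF1-Fc, the largest difference of the 10 (log2 difference 1.93, SE 0.16, adjusted p = 0.0128 from limma). Its PBS values stood at the 57.3 to 57.5 percentile of their arrays. No detection calls were used here to say whether they lay above background, so the size and rank of this difference carry that limit. Elf4, an ETS factor that also restrains proliferation of T cells in mice, was at 6.79, 6.68, 7.42 and 7.09 in CSF1-Fc liver, at 6.10 and 5.56 in PBS liver, and at 7.02, 7.06 and 7.17 in BMDM. Its difference with CSF1-Fc was 1.16 (SE 0.26) and did not pass (adjusted p = 0.116).

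Irf8, a partner of PU.1 that directs monocyte and dendritic cell fate in mice, was at 8.0, 7.92, 7.83 and 8.0 in CSF1-Fc liver, at 6.61 and 7.03 in PBS liver, and at 5.14, 5.73 and 4.42 in BMDM. The groups did not overlap, and here BMDM was lowest, whereas it was highest for Spi1. Irf8 rose 2.17-fold with CSF1-Fc (log2 difference 1.12, SE 0.16, adjusted p = 0.0351). The 4 CSF1-Fc livers spanned a narrow range and the BMDM cultures a wide one.

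Irf5, which acts below Toll-like receptors in inflammatory macrophages, was at 7.29, 7.98, 7.64 and 7.60 in CSF1-Fc liver, at 5.53 and 6.21 in PBS liver, and at 7.87, 7.77 and 8.09 in BMDM. The CSF1-Fc livers overlapped BMDM and the PBS livers lay below both. Irf5 rose 3.38-fold with CSF1-Fc (log2 difference 1.76, SE 0.26, adjusted p = 0.0397), and this call was lost when either PBS liver was left out (adjusted p = 0.0545 for PBS liver 1 and 0.0611 for PBS liver 2).

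Tfec, a factor of the MiT/TFE family that is largely confined to macrophages in mice, was at 9.36, 9.34, 9.23 and 9.32 in CSF1-Fc liver, at 7.63 and 7.95 in PBS liver, and at 7.33, 7.15 and 6.37 in BMDM. The 3 groups did not overlap, and the CSF1-Fc livers were the most closely grouped of any of the 10 genes. Tfec rose 2.87-fold with CSF1-Fc (log2 difference 1.52, SE 0.14, adjusted p = 0.0134).

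Runx3, a RUNX factor of leukocytes, was at 5.94, 6.30, 5.51 and 6.66 in CSF1-Fc liver, at 4.71 and 4.34 in PBS liver, and at 4.09, 3.69 and 3.07 in BMDM. The groups did not overlap. The BMDM values stood at the 33.0 to 54.8 percentile of their arrays, around the array median, and the PBS values at the 57.8 to 60.1 percentile. No detection calls were used here to say whether either lay above background. The difference with CSF1-Fc was 1.58 (SE 0.33) and did not pass (adjusted p = 0.0943). Runx3 is also expressed by T and NK cells, whose part in its level was not tested. The mean of 13 markers of these cells was 4.41 to 4.61 in CSF1-Fc liver, 4.20 to 4.43 in PBS liver and 3.52 to 3.66 in BMDM. Of the 13 only Cd4 rose with CSF1-Fc (log2 difference 2.24, adjusted p = 0.0128 from limma), and the median difference was 0.1. Cd4 also averaged 7.8 in the cultured macrophages, so its rise is not read as one of T or NK cells.

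Klf4, a zinc finger factor of monocytes and endothelium, was at 5.87, 6.56, 7.10 and 6.22 in CSF1-Fc liver, at 5.00 and 5.13 in PBS liver, and at 9.26, 8.18 and 8.68 in BMDM. BMDM was far above both livers. The difference with CSF1-Fc was 1.37 (SE 0.33) and did not pass (adjusted p = 0.138). Fos, the AP-1 subunit induced within minutes by growth factors, was at 7.60, 7.65, 7.16 and 6.83 in CSF1-Fc liver, at 5.13 and 5.83 in PBS liver, and at 5.58, 5.60 and 5.55 in BMDM. Its BMDM values fell inside the range of the PBS livers. Its difference with CSF1-Fc, 1.83 (SE 0.31), was the second largest of the 10 and narrowly missed the threshold (adjusted p = 0.0573).

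Each of the 6 calls needed all 4 CSF1-Fc livers. Without any 1 of them, 0 of the 10 genes passed in limma. All 10 had an unadjusted p under 0.05 each time, as did 4068 to 4266 of all 36685 probe sets. The log2 differences of the 10 genes stayed between 0.90 and 2.18 over all single arrays left out. In a fit of all 9 arrays Irf8 (adjusted p = 0.196) and Fli1 (adjusted p = 0.0513) did not pass, and Fos did (adjusted p = 0.0184). Spi1 did not pass with a trended, robust variance prior (adjusted p = 0.0522) or after centring on array medians (0.0588), where Irf8 did not pass either (0.0521). Without dim probe sets Fos (0.0259) and Runx3 (0.0476) passed.

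Promoter windows of RefSeq (assembly GRCr8), which run from 250 bases before a gene's start, were matched for 7 of the 10 genes, with a pair of windows for Runx3 and none for Spi1, Fli1 or Fos. The 250 bases were searched on both strands for AGGAAG, the core most often bound by PU.1, CGGAAG, the core of other ETS factors that shares GGAAG with it, GAAANNGAA for IRF, ACCACA for RUNX, TGANTCA for AP-1, TGACGTCA for CREB and ATF, GGGCGG (the GC box) and TATAAA. Among 33469 windows these occurred in 29.5%, 13.9%, 8.12%, 14.5%, 6.34%, 1.59%, 30.5% and 12.9%. The stretches of Tfec, Runx3 and Irf8 are printed because these genes were higher in CSF1-Fc liver than in BMDM and the bases lie outside the annotated gene, with matches other than those of the GC box in capitals.
Tfec, chr4:46146201-46146300, minus strand: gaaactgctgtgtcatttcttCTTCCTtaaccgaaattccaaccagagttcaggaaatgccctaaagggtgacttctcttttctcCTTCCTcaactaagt
Runx3, chr5:152644135-152644234, plus strand: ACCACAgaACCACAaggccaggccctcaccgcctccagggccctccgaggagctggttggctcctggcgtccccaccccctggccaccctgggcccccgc
Irf8, chr19:65699184-65699283, plus strand: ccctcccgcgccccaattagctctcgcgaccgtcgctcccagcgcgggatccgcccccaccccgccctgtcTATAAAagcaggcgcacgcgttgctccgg
The Tfec window held AGGAAG 3 times, which 1.15% of windows did at least as often, with CTTCCT, its reverse complement, at -79 and -15 from the start in the stretch printed. None of the other 7 windows searched held it. The upstream Runx3 window held ACCACA at -135 and -127, as 1.44% of windows did at least 2 times, and TGACGTCA at -247. The Irf8 window held TATAAA at -29 and GGGCGG or its reverse complement 3 times. No window of the 7 genes held the IRF or AP-1 letters, which says only that these letters were absent from the bases searched.

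The comparison with BMDM asks whether a gene's level in the treated liver lies above or below that of cultured macrophages. Of the 10 genes, 5 were higher in CSF1-Fc liver than in BMDM and 2, Klf4 and Spi1, were lower, beside 17.5% and 19.9% of all probe sets. The median over all probe sets was -0.14 in this comparison. Liver arrays also carry RNA of hepatocytes, endothelium and other cells, whose part in these differences was not tested.

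Irf8 was 7.15-fold higher (log2 difference 2.84, adjusted p = 0.000155), Runx3 5.60-fold (2.49, adjusted p = 0.000708), Tfec 5.15-fold (2.37, adjusted p = 0.000142), Fos 3.33-fold (1.74, adjusted p = 0.000537) and Fli1 1.98-fold (0.98, adjusted p = 0.00337 from limma). Klf4 was 4.82-fold lower (log2 difference -2.27, adjusted p = 0.00147). Etv5, Irf5 and Elf4 overlapped BMDM, with log2 differences of 0.29 (95% interval -0.10 to 0.68), -0.28 (-0.73 to 0.16) and -0.08 (-0.55 to 0.38), so differences of this size were not resolved. The size of the Runx3 difference, and so its place behind Irf8, rests on BMDM values that may be at background. The 7 calls held without any single array.

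PBS liver was lower than BMDM for 5 of the 10 genes and higher for 1, beside 10.2% and 10.4% of all probe sets. Klf4 was 12.5-fold lower (log2 difference -3.64, adjusted p = 0.0017), Spi1 5.74-fold (-2.52, adjusted p = 0.00748; 0.0586 without PBS liver 1), Irf5 4.12-fold (-2.04, adjusted p = 0.00659), Etv5 3.13-fold (-1.64, adjusted p = 0.00778; 0.0589 without PBS liver 2) and Elf4 2.38-fold (-1.25, adjusted p = 0.0254). The Elf4 call was lost without PBS liver 2 or any 1 of the BMDM cultures, with adjusted p between 0.0538 and 0.121. Irf8 was 3.30-fold higher in PBS liver (1.72, adjusted p = 0.0386), but the call was lost without PBS liver 1, PBS liver 2, BMDM 1 or BMDM 3. Runx3 (0.91) and Tfec (0.84) did not pass although their PBS livers lay above all BMDM cultures, and Fos (-0.09) and Fli1 (-0.07) overlapped. Both BMDM comparisons share the same cultures.

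**Figure D2:**
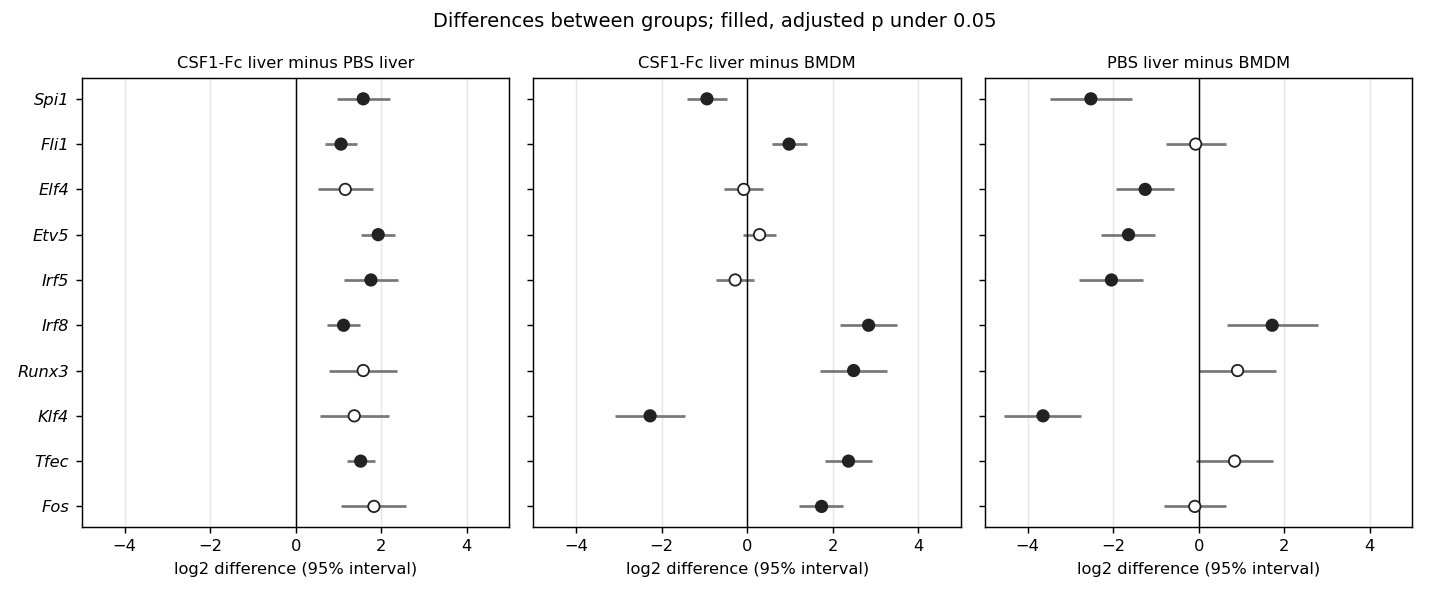
Log2 differences of the 10 genes in the 3 comparisons, with 95% intervals as bars and filled points where the adjusted p was under 0.05. Against PBS liver all points lie to the right of 0, whereas against BMDM the CSF1-Fc livers run from -2.27 for Klf4 to 2.84 for Irf8.

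Of 13 pan-macrophage markers 7 rose in the same livers and none fell, so each gene was also read against the mean of the 13 on its own array. This ratio does not separate cell number from RNA per cell, and Lyz2, one of the 13, had a difference of only 0.07 between the livers. Relative to the markers, Irf8 and Fli1 were lower in CSF1-Fc liver than in PBS liver and the other 8 genes did not pass. Nearly all probe sets, 94.8%, were lower on this scale and 0.0818% were higher, so a lower ratio is not particular to these 2 genes.

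The log2 ratio of Irf8 to the markers was -2.03, -2.13, -2.30 and -2.08 in CSF1-Fc liver, against -1.65 and -1.52 in PBS liver, without overlap (difference -0.55, SE 0.16, adjusted p = 0.0121 from limma; 0.115 in a fit of all 9 arrays). That of Fli1 was -1.31, -1.18, -1.05 and -1.17 in CSF1-Fc liver, against -0.30 and -0.83 in PBS liver (difference -0.61, SE 0.20, adjusted p = 0.0185), a call lost when PBS liver 1 was left out (-0.35, adjusted p = 0.0884). The other 8 differences ran from -0.50 for Elf4 to 0.27 for Etv5. For Spi1 the ratio was -1.08, -0.95, -0.92 and -0.98 in CSF1-Fc liver, between the PBS livers at -1.20 and -0.60. The plot of the genes among the markers shows Etv5, Fos, Irf5, Spi1, Runx3, Tfec and Klf4 interspersed with the markers, and Elf4, Irf8 and Fli1 below all of the markers but Lyz2. The largest difference of a marker was 2.85, for Cd14, a co-receptor for lipopolysaccharide.

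**Figure D3:**
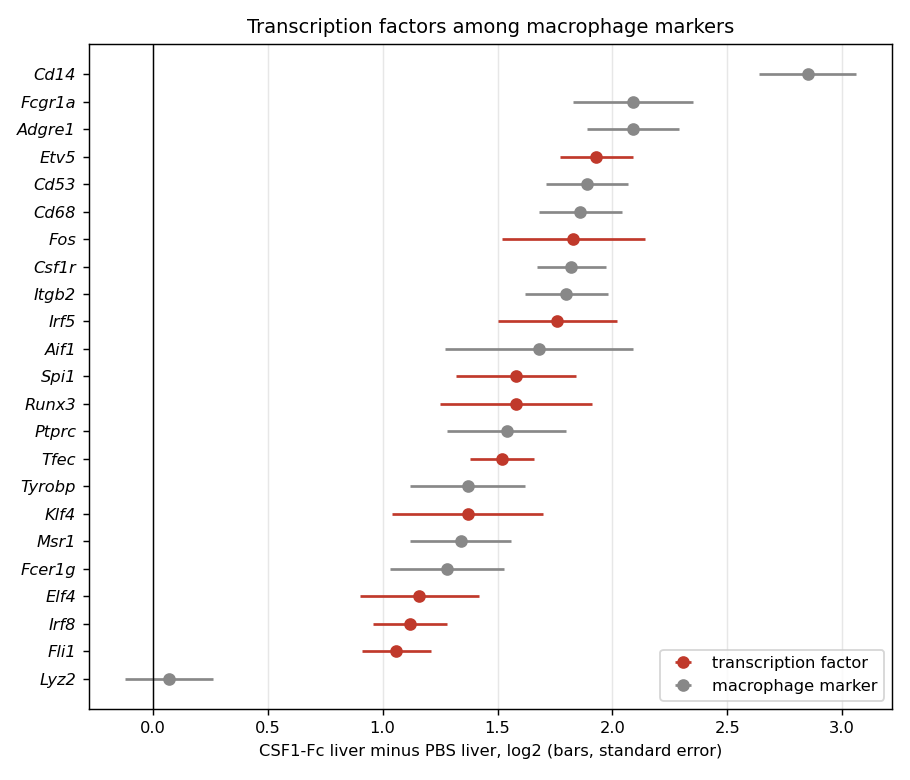
Log2 differences between CSF1-Fc liver and PBS liver for the 10 transcription factor genes (red) and 13 pan-macrophage markers (grey), with standard errors as bars. The transcription factors lie between 1.06 and 1.93 and the markers between 0.07 for Lyz2 and 2.85 for Cd14.

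Against BMDM on the same scale, 6 of the 10 genes were higher in CSF1-Fc liver and 1 was lower, beside 39.3% and 10.2% of all probe sets. The 6 were Irf8 (3.38), Runx3 (3.03, with the same limit), Tfec (2.91), Fos (2.28), Fli1 (1.53) and Etv5 (0.83), and Klf4 was lower (-1.73). The zero of this scale was set by the markers used, and the order of the genes was not. Relative to 12 Kupffer cell markers, which averaged 9.78 to 10.05 in CSF1-Fc liver, 8.02 to 8.43 in PBS liver and 5.22 to 5.70 in BMDM, every difference shifted by -4.95. All 10 genes were then lower in CSF1-Fc liver than in BMDM, beside 98.0% of all probe sets, so nothing is read from that count.

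Other genes of the same families gave the setting for these differences. Of 18 ETS genes, 3 rose with CSF1-Fc and none fell, namely Etv5, Fli1 and Spi1. The 14 other ETS genes had a median difference of 0.00. Among them Fev was at -0.58 (adjusted p = 0.0946 from limma) and Etv6, a transcriptional repressor, at 0.52 (adjusted p = 0.168). Of 7 IRF genes, Irf8 and Irf5 rose, and Irf7, which drives type I interferon genes, had a difference of 0.95 (adjusted p = 0.163). Of 15 KLF genes, 5 RUNX and CBF genes and 14 AP-1 and ATF genes none passed in limma, with 2, 2 and 3 higher at an unadjusted p under 0.05. At that level 2681 of all 36685 probe sets were higher. Klf4, Runx3 and Fos had the largest differences among the measured genes of their families. Next came Klf6 (0.79), Cbfb, the shared partner of RUNX proteins (0.60), and Batf (0.72, adjusted p = 0.0772). The study named Klf4, Runx3 and Fos for their rise on these livers, so their place ahead of relatives was favoured by that choice. In the MiT/TFE family Tfec rose and Tfeb had a difference of 0.22. The families were measured in part, since Spic, Runx1, Etv1, Mitf, Ets1 and others were not matched to a probe set. The study named Spic, Runx1 and Etv1 for the same rise.

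**Figure D4:**
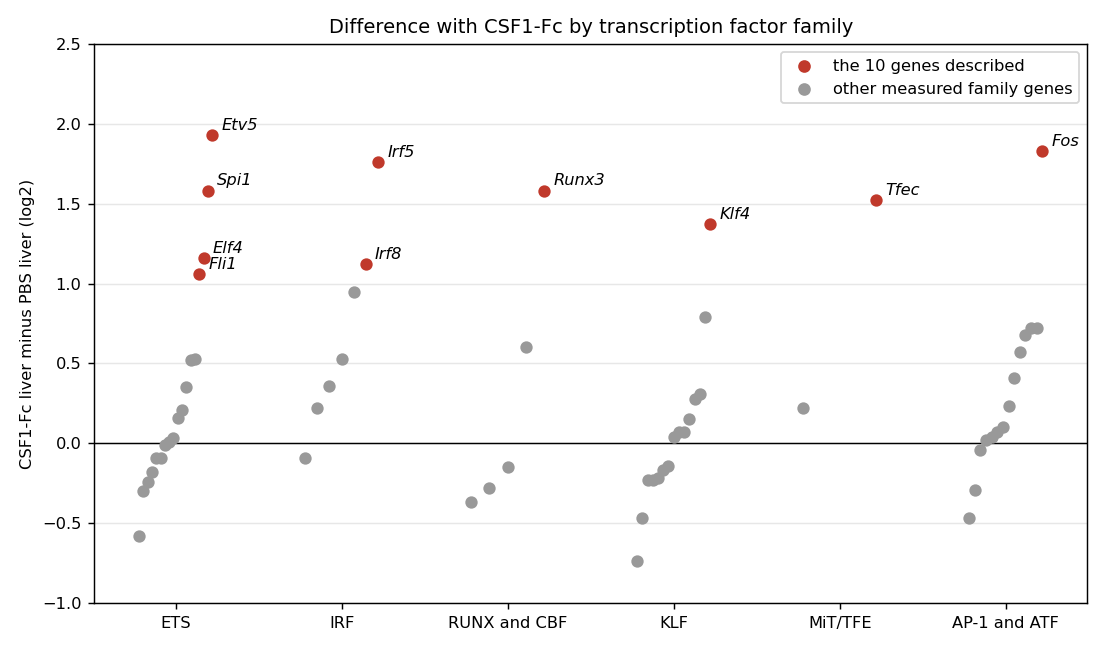
Log2 differences between CSF1-Fc liver and PBS liver for the measured genes of 6 transcription factor families, with the 10 genes described in red and other family genes in grey. The red points lie at 1.06 or more and the grey points at 0.95 or less. The red genes were named by the study for their rise on these livers, so their place above the grey points was favoured by that choice.

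Against BMDM the families split in both directions. Among ETS genes Erg, an endothelial factor, was higher in CSF1-Fc liver (log2 difference 3.44, adjusted p = 3.72e-05) and Gabpa, which binds promoters of mitochondrial genes, was lower (-1.75, adjusted p = 5.96e-05). Irf4, a factor of lymphocytes and alternatively activated macrophages, was lower (-2.23, adjusted p = 0.000279), in the opposite direction to Irf8. Runx2 (-1.95, adjusted p = 1.83e-05) and Cbfb (-1.35) were lower, in the opposite direction to Runx3. Klf6 was lower (-2.57, adjusted p = 2.49e-05 from limma), in the same direction as Klf4, whereas Klf3 (1.24) and Klf12 (2.34) were higher. Of the 15 KLF genes 6 were higher and 3 lower, beside 17.5% and 19.9% of all probe sets.

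Fos was also set among 18 immediate early genes, none of which passed between the livers in limma. Before adjustment 4 were higher with p under 0.05, beside 2681 of all 36685 probe sets. Fos, Klf4, Klf6 and Nr4a1 (0.67) had the smallest p. Against BMDM, 7 of the 18 were higher in CSF1-Fc liver and 6 lower, beside 17.5% and 19.9% of all probe sets. Fos was among the higher. The lower ones with the smallest p were Atf3, a stress-induced factor (-4.88, adjusted p = 1.94e-06 from limma), Egr2 (-4.82), Klf6 and Ier5 (-2.15). Of 7 genes of ERK feedback none passed between the livers in limma. Before adjustment 3 were lower with p under 0.05, beside 2349 of all 36685 probe sets. Spry1, an inhibitor of receptor tyrosine kinase signalling, was at -0.86 (adjusted p = 0.0886 from limma) and Spry4 at -0.83 (adjusted p = 0.166).

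Of 15 genes known as PU.1 targets in mouse or human, 10 rose with CSF1-Fc and none fell, beside 1.22% and 0.254% of all probe sets. Their median difference was 1.5, against -0.03 over all probe sets. The list was chosen with earlier results of these data known, so the count is not independent evidence. Of the 15, 6 are also among the pan-macrophage markers (Cd14, Csf1r, Fcgr1a, Itgb2, Lyz2 and Tyrobp), whose median was 1.8. Csf1r, the CSF1 receptor, rose by 1.82 (adjusted p = 0.0128 from limma), Csf2rb, the shared chain of the GM-CSF receptor, by 2.19 (adjusted p = 0.0128) and Tlr4 by 1.76 (adjusted p = 0.0135). Against BMDM 8 of the 15 were lower in CSF1-Fc liver and 2 higher, beside 19.9% and 17.5% of all probe sets. Of the 13 pan-macrophage markers 5 were lower and 1 higher in this comparison. Itgam, an integrin of myeloid cells, was at -4.16 (adjusted p = 3.64e-05 from limma). Of 13 partners and targets of Irf5 and Irf8 only Tlr7 rose, by 1.89 (adjusted p = 0.0128), and Cd74, the invariant chain, had a difference of 1.48 (adjusted p = 0.0916). Of 19 other myeloid transcription factors none passed in limma. Before adjustment 6 were higher with p under 0.05 and 2 lower, beside 2681 and 2349 of all 36685 probe sets. Nr1h3, which encodes LXR alpha, was at 1.04 (adjusted p = 0.121 from limma). Of 15 endothelial and erythroid factors, Fli1 and Lyl1 rose, Lyl1 by 0.88 (adjusted p = 0.0431). Before adjustment 3 of the list were lower with p under 0.05, with Sox7 at -0.79 (adjusted p = 0.0727) and Gata4 at -0.83 (adjusted p = 0.0934), and the median without the genes described here was -0.24.

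Over all 9 arrays, each gene's centred profile was compared with those of the other named genes, by the root mean square difference in log2 units. A gene with several probe sets was represented by the 1 with the highest mean over the livers. The nearest profile was Inpp5d for Etv5 (0.11), Amigo2 for Irf8 (0.16), Lpxn for Spi1 (0.17), Celf2 for Elf4 (0.17), Capn1 for Fli1 (0.18) and Cd68, a lysosomal marker of macrophages, for Irf5 (0.18). It was Dyrk4 for Tfec (0.23), Sh2b2 for Fos (0.26), Tfec itself for Runx3 (0.32) and Slc4a7 for Klf4 (0.37). The medians over genes ran from 0.67 to 1.45. Among the 10 genes, Runx3 and Tfec were each other's nearest (0.32), as were Spi1 and Irf5 (0.34), whereas Klf4 was farthest from the rest, at 0.75 from Spi1.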

How the data were processed

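RNA was measured on Affymetrix Rat Gene 2.1 ST arrays in 9 samples. The authors summarized the signals to probe sets and normalized them by robust multi-array averaging with the Transcription Analysis Console, after quality control in Affymetrix Expression Console, and deposited the values on the log2 scale. They were used as given. Whether all 9 arrays were normalized together is not given in the sources used here, which bears on the comparisons with BMDM. Array data carry no read depth, and the number of arrays limits the precision.

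The annotation of the platform gave exactly 1 symbol for 14824 probe sets. Each comparison was fitted to the compared groups alone with lmFit and eBayes in limma 3.58.1 (R 4.3.3), with Benjamini-Hochberg adjustment over 36685 probe sets. Ratios to macrophage markers were log2 expression minus the mean of the markers on the same array, fitted alike. The fits were tested on simulated data. The 10 genes and the 25 lists, which hold 325 genes of which 247 were matched, were chosen with earlier results of these data known. Besides the 10 genes, up to 4 genes of each list with the smallest p in the comparison described and the nearest profiles to each gene are named. Python 3.11.15, numpy 2.4.6, pandas 2.3.3 and matplotlib 3.10.9 were used. Alternatives were a single fit over the 9 arrays, leaving out dim probe sets, keeping only probe sets with 1 symbol, a trended robust prior, quantile normalization, median centring, the replicate number as a block, Kupffer markers and leaving out each array. The median of the macrophage markers in place of the mean was added after the values were seen.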

Additional observations from a re-analysis of the deposited data

How the results depend on the processing

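For each of the 10 genes every CSF1-Fc liver lay above both PBS livers. Leaving out arrays, filtering probe sets or changing the prior therefore could not reverse a direction. Between these livers the direction of all 10 genes held under every alternative run, but the number that passed did not. It was 6 as reported, 0 in limma with the replicate number as a block, and 0 without any 1 of the CSF1-Fc livers. With the block, 10 had an unadjusted p under 0.05 in limma, as did 2692 of all 36685 probe sets. The numbers are shared by the groups in the labels only. Deviations from the group means correlated at 0.0213 and 0.181 for same-numbered livers and at -0.21 to 0.21 for livers of different numbers. With only 2 PBS livers their deviations mirror each other, so these values cannot show or exclude a pairing. The block is therefore not read as one. Keeping only probe sets with 1 symbol gave 9, leaving out dim ones 8 and median centring 4. No value could be had from averaging a gene's probe sets, since each gene had 1.

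Of the genes lower in CSF1-Fc than PBS liver relative to the markers, 1, Fli1, passed in the fit of all 9 arrays and 0 with the replicate block (0 in limma also at an unadjusted p under 0.05). With single arrays left out, the uncalled differences of Spi1 (-0.39 to 0.22), Irf5 (-0.10 to 0.28), Runx3 (-0.42 to 0.24) and Fos (-0.046 to 0.36) changed sign.

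Against BMDM, the 5 higher and 2 lower genes of CSF1-Fc liver kept these counts in every alternative, and Elf4, which did not pass, ran from -0.23 to 0.022 without single arrays. For PBS liver the higher genes were 2 in the fit of all 9 arrays, and 0 to 1 in limma without single arrays (0 to 3 at an unadjusted p under 0.05), where the lower ones were 3 to 5. Uncalled Fli1 ran from -0.23 to 0.052 and Fos from -0.44 to 0.26, and Fli1 was also 0.052 with the replicate block. Kupffer cell markers in place of pan-macrophage markers shifted every probe set by -4.95, so that 98.0% of all probe sets were lower. The sign changes on this scale follow from that shift. There 0 genes were higher in CSF1-Fc liver than in BMDM and 10 were lower, among them Fli1 (-3.43), Elf4 (-4.50), Etv5 (-4.12), Irf5 (-4.70), Irf8 (-1.57), Runx3 (-1.93), Tfec (-2.05) and Fos (-2.67). The Kupffer markers were 5.22 to 5.70 in BMDM. The median of the macrophage markers, tried after the data were seen, reversed no gene. Only 2 PBS livers limit every comparison with them. Over all probe sets, calls between the livers numbered 542 as reported, 816 without dim ones, 0 with the block and 0 to 2628 without single arrays. PBS liver against BMDM had 7569, and 11616 in the fit of all 9 arrays, 4841 with 1 symbol and 3804 to 7185 without single arrays. CSF1-Fc liver against BMDM had 13717, and 7033 with 1 symbol. Relative to the markers these were 34790 between the livers (17119 without dim probe sets, 14442 with 1 symbol) and 18169 against BMDM (9236 with 1 symbol, 12106 with the block, 36269 with Kupffer markers).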
